A study of Mus musculus with 6 samples.

Results

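The genes examined here encode potassium channel subunits of the female mouse submandibular gland (SMG), a major salivary gland. They were taken as the rows of the authors' filtered count table whose symbol starts with Kcn, leaving out Kcnma1 and Kcnn4, which gave 53 of its 17527 rows. A row stayed in that table if any library had over 5 counts. The whole count table has 97 such Kcn rows among 43280. Kcns3 was singled out for its difference between the groups in these same libraries, so its values are given as a description and were not tested. The other 52 genes were chosen by symbol and by the count filter, and were tested.

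RNA was sequenced from glands of adult female mice on a C57BL/6 background. There were 3 libraries labelled wild type (WT) and 3 labelled Hs3st3a1;3b1 DKO, for double knockout, numbered 1, 4 and 5 in each group, and WT and DKO stand for these labels throughout. According to the study, the DKO mice carry a frameshift deletion in the first exon of Hs3st3a1 and a LacZ cassette in Hs3st3b1. The enzymes they encode add 3-O-sulfate groups to heparan sulfate chains. Which founder line the DKO glands came from, the age of the mice and whether each gland came from a different mouse were not given in the sources used here, so p-values measure the spread between these samples. Total counts ranged from 23674258 to 29611975 per library. The counts of the targeted genes did not separate the groups, with log2 fold changes of -0.22 for Hs3st3a1 and -0.04 for Hs3st3b1 (DESeq2 adjusted p = 0.947 and 0.976). A count per gene does not show a short deletion or where the reads of a gene lie, so groups are named by their labels and every direction rests on those labels.

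Potassium channels let potassium ions cross the cell membrane along their gradient and so set the membrane voltage. In salivary acini, potassium leaving the cell keeps up the electrical drive for chloride secretion into the lumen, and in the ducts potassium is added to the saliva. Most Kcn genes encode pore-forming subunits, in families that open with voltage, that rectify inward, that carry a pair of pore loops in each subunit (K2P channels), or that open with calcium or sodium. Others encode accessory subunits with no pore. Kcns3 encodes Kv9.3, one of the electrically silent voltage-gated subunits, which form no working channel alone and change the properties of Kv2 channels by assembling with Kv2 pore subunits such as that of Kcnb2.

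The pore loop of these channels is known for a glycine, an aromatic residue and another glycine in the selectivity filter. To show what the genes share, the longest annotated coding sequence of each was searched in frame, on the coding strand, for a glycine codon (GGN), a tyrosine or phenylalanine codon and a glycine codon in a row. All 42 genes with a pore-forming or silent subunit held such a run and 0 of the 10 accessory subunit genes did, against 13.4% of 21605 protein-coding genes. The remaining gene, Kcnq1ot1, is noncoding. A match is a description of the letters and does not show that a stretch is the filter. The stretches below, of GENCODE M21 transcripts, start at codon 372 of Kcns3, 394 of Kcns1 and 119 of Kcnk1, as counted at the first capital. The 9 capitals mark the run itself. They are shown because the silent subunits Kcns3 and Kcns1 carry it as the pore gene Kcnk1 does.
Kcns3: accacagtgGGCTATGGAgacacccac
Kcns1: accacagtgGGCTATGGGgatgtggtg
Kcnk1: tccaccacaGGCTATGGCcacacggtg

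Kcns3 occupies 11090202 to 11151056 of chromosome 12 (GRCm38, minus strand), and its whole coding sequence lies in 1 exon (11091224 to 11092696). Raw counts of Kcns3 were 118, 110 and 120 in WT 1, 4 and 5. They were 33, 17 and 18 in DKO 1, 4 and 5. Normalized for library size, the level was 111 ± 5.33 against 23.3 ± 7.11 normalized counts (SD, n = 3). The groups were far apart and did not overlap, and the WT libraries lay close together. In a whole gland, fewer cells of a type and less RNA per cell cannot be told apart, for this gene or those that follow. On the log2 scale DKO differed from WT by -2.24 (SE 0.31), which is 4.72-fold lower. Pooled over each group, 348 counts stood against 68, a ratio of 0.214 with an exact 95% interval of 0.162 to 0.278 that covers counting error only. The log2 fold change stayed between -2.52 and -2.07 when any 1 library was left out. No exon of another gene annotated in GENCODE M21 overlaps Kcns3. The libraries were unstranded and the annotation used for counting was not given, so unannotated antisense reads could not be told apart.

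Within 1 Mb on either side, 5 other rows were tested. DESeq2 called 0 of them at an adjusted p-value under 0.05, the threshold used throughout, and 0 had an unadjusted p-value under 0.05. Vsnl1 had a log2 fold change of -0.51 and Rdh14 of 0.31, and Mir7675 had 25 counts over all 6 libraries. Gen1 and Smc6, the nearest at 87.9 and 115 kb, had 0.52 and 0.28.

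Of the Kv2 pore genes that Kcns3 subunits assemble with, Kcnb2 had 2, 3 and 4 raw counts in WT, against 9, 8 and 0 in DKO. These counts overlap and are near the limit of what this depth can show. Per kb of merged exons, which allows genes to be compared, Kcns3 stood at 35.0 ± 1.68 normalized counts in WT and Kcnb2 at 0.187 ± 0.0532 (SD, n = 3). In DKO they stood at 7.36 ± 2.25 and 0.371 ± 0.322. Amigo1, which encodes an accessory protein of Kv2 channels, had 497 ± 8.97 against 538 ± 48.8 normalized counts (DESeq2 adjusted p = 0.807).

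The other silent subunits did not follow Kcns3. Kcns1 had 28.7, 63.6 and 35.8 normalized counts in WT, against 67.4, 60.6 and 54.2 in DKO. Here WT 4 lay within the DKO range, and the log2 fold change was 0.51 ± 0.36 (SE, adjusted p = 0.608 by DESeq2). Kcng4 had 3.96, 7.83 and 15.2 against 10.4, 6.27 and 5.76 normalized counts, with overlap. Per kb, Kcns3 was above Kcns1 in every WT library, where Kcns1 averaged 15.7 ± 6.80 normalized counts per kb. Kcns1 was above Kcns3 in every DKO library, at 22.4 ± 2.43. The remaining silent subunit genes, Kcnf1, Kcng1, Kcng2, Kcng3, Kcns2, Kcnv1 and Kcnv2, had at most 3 counts in any library. The plot of silent subunits by library shows these values.

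**Figure D1:**
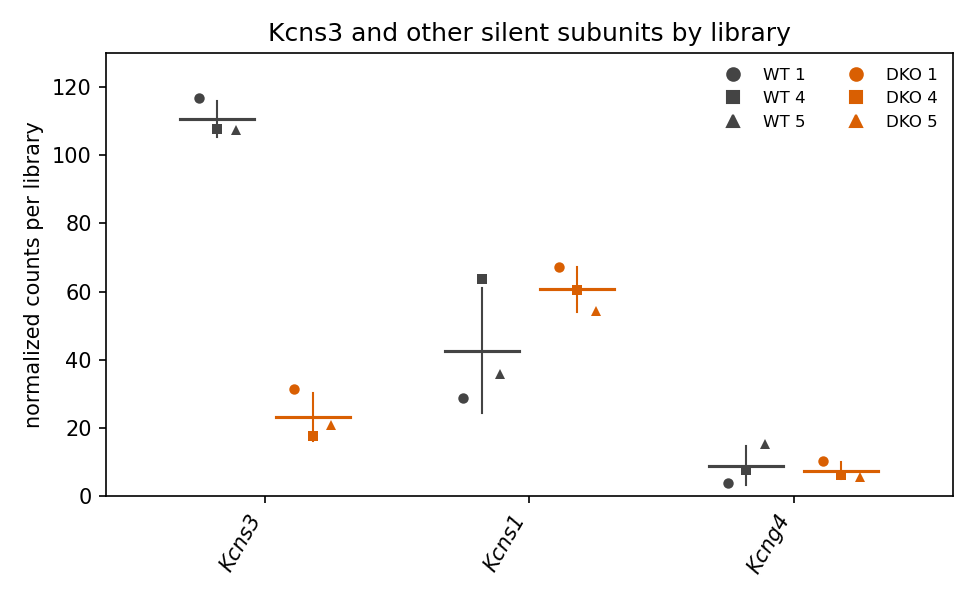
Normalized counts per library (vertical axis) of Kcns3, Kcns1 and Kcng4, with gray symbols for WT and orange for DKO. Horizontal lines are group means and vertical lines are ± 1 SD (n = 3). Kcns3 is at 107 or above in every WT library and at 31.3 or below in every DKO library, while Kcns1 and Kcng4 overlap between the groups.

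The most abundant potassium channel gene per kb was Kcnk1, which encodes the K2P subunit TWIK-1. Its mean over the 6 libraries was 555 normalized counts per kb. Kcnk5 (TASK-2, 177) and Kcnj16 (Kir5.1, 155) followed, and these neighbours did not differ beyond their spread over libraries. Kcnq1 (120), which encodes a voltage-gated subunit of epithelia, and Kcnk6 (TWIK-2, 77.8) came next. Kcnip3 (73.2), Kcnt1 (67.4), Kcnq1ot1 (64.1), Kcnj15 (52.1) and Kcna1 (49.2) completed the 10 highest, and the steps between them were smaller than their spread. Kcns3 ranked 14 of 53 at 21.2, averaged over both groups.

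**Figure D2:**
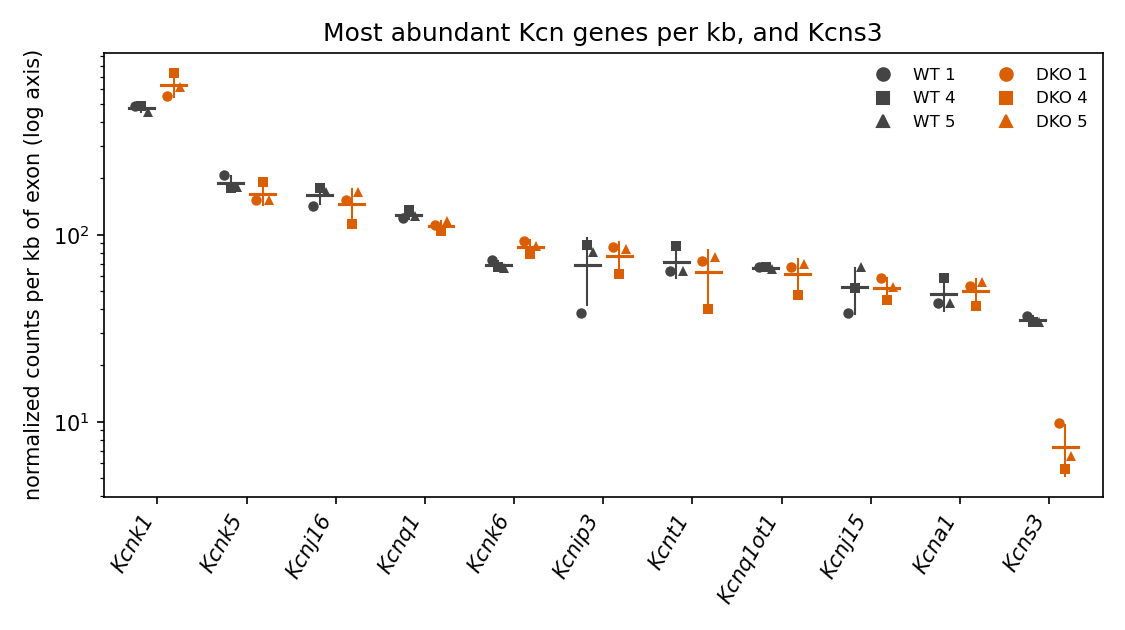
Normalized counts per kb of merged exon (log axis) for the 10 Kcn genes of highest mean level and for Kcns3, in gray for WT and orange for DKO. Lines are means ± 1 SD (n = 3). Kcnk1 stands above all others at 477 ± 21.1 in WT and 633 ± 89.9 in DKO, and Kcns3 falls from 35.0 to 7.36.

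Over the 52 genes other than Kcns3, 1 was called higher and 0 were called lower by DESeq2. Over all 18606 rows tested, 1.02% were called higher and 1.88% lower, 2.9% in all, so the share of the channel genes (1.92% and 0%) is near the background. At an unadjusted p-value under 0.05 there were 3 higher and 5 lower, or 5.77% and 9.62%, against 4.92% and 7.26% of all rows. The groups did not overlap for 5 genes higher and 5 lower (9.62% each), against 9.85% and 10.5% of all rows, or 20.3% in either direction. The lower genes in both counts include Kcnd3, which passed the count filter only through WT libraries, so its direction was favoured by the choice of rows. DESeq2 left 7 of the 52 without an adjusted p-value. The median log2 fold change of the 52 was -0.11, beside 0.00 over all rows. It was -0.23 for the 31 with a mean under 50 normalized counts and 0.04 for the 21 with a higher mean. By edgeR and by limma-voom 0 of the 52 were called, with 7 at an unadjusted p-value under 0.05 in each. Of the 21 other genes with a mean of at least 50 normalized counts, log2 fold changes ran from -0.56 (Kcnj3) to 0.53 (Kcnn1). For the 31 of lower mean they ran from -3.92 (Kcnd3) to 2.05 (Kcnip4). Kcns3 was singled out for its difference, so its distance from the other genes is a description only.

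**Figure D3:**
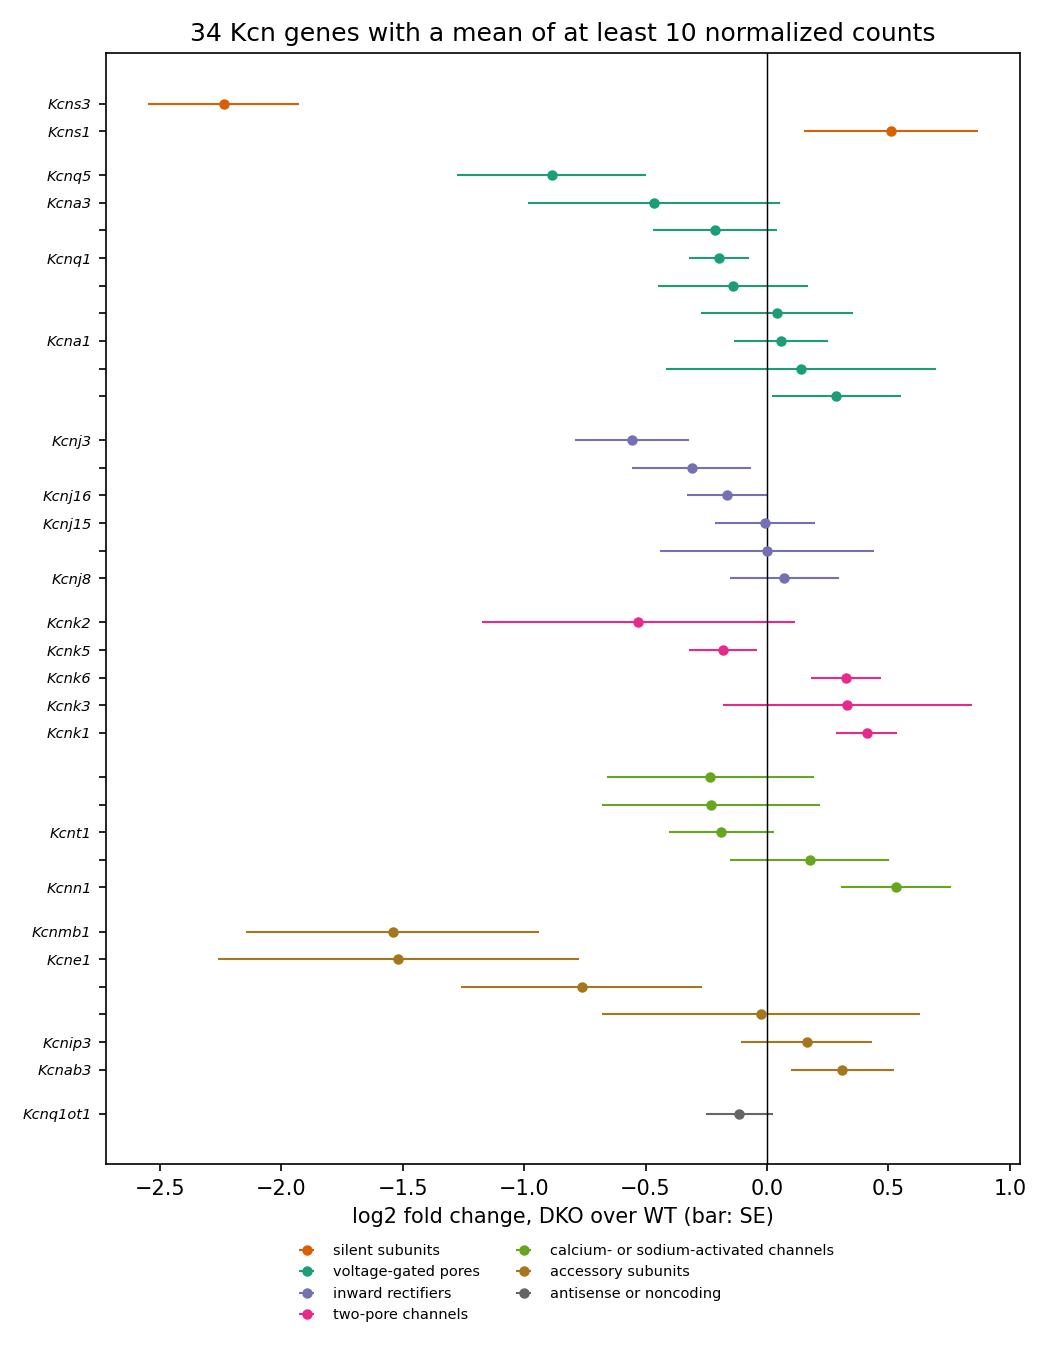
Log2 fold change of DKO over WT (horizontal axis) with its SE for 34 Kcn genes whose mean is at least 10 normalized counts, colored by family, with names for the genes described in the text. Kcns3 lies at -2.24, next Kcnmb1 at -1.54 and Kcne1 at -1.52 with wide errors, and the genes of higher count lie close to 0.

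Of the 6 K2P genes, DESeq2 called Kcnk1, and it called none of the others. Kcnk1 (chromosome 8, 125995170 to 126030685, plus strand) had 1089, 1097 and 1011 normalized counts in WT, against 1238, 1634 and 1375 in DKO. All DKO libraries were above all WT libraries, most of all DKO 4. The level rose from 1065 ± 47.1 to 1416 ± 201 (log2 fold change 0.41 ± 0.12 SE, adjusted p = 0.0361 by DESeq2), which is 1.33-fold. This call was lost by leaving out WT 1, WT 4, WT 5, DKO 4 or DKO 5, with adjusted p-values of 0.198, 0.0725, 0.327, 0.158 and 0.163, and also under edgeR (adjusted p = 0.175) and limma-voom (0.22). With total counts as size factors, which shift the median of all rows by -0.23, its log2 fold change was 0.17 (adjusted p = 0.387). Gm45875 overlaps an exon of Kcnk1 on the opposite strand, and their reads could not be separated.

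Some acinar markers were also higher in DKO. Of 6 acinar genes, DESeq2 called 3 higher (Aqp5, Agt and Agr2) and edgeR and limma-voom called 1 each. Ceacam1, Lpo and Bhlha15 did not pass the threshold, and Ceacam1 overlapped between the groups. The summed level of the 6 ranged from 28637 to 34398 normalized counts in WT and from 38663 to 57213 in DKO. The part of acinar content in the difference of Kcnk1 was not tested.

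The other K2P genes did not pass the threshold. Kcnk6 had 304, 281 and 277 normalized counts against 386, 328 and 363, with no overlap between the groups (log2 fold change 0.32 ± 0.14 SE, adjusted p = 0.248 by DESeq2). Kcnk5 had 641 ± 57.7 against 566 ± 76.9 normalized counts (log2 fold change -0.18, adjusted p = 0.666), with overlap. Kcnk2, Kcnk3 and Kcnk13 had means under 30 normalized counts in either group, and their groups overlapped.

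Log2 fold changes of the 8 inward rectifier genes ran from -0.67 (Kcnj9, which passed the count filter only through WT libraries) to 0.07 (Kcnj8). None was called by DESeq2, edgeR or limma-voom, and 1 had an unadjusted DESeq2 p-value under 0.05. That gene was Kcnj3, which encodes the G protein-gated channel subunit GIRK1. It had 107, 150 and 132 normalized counts in WT, against 90.1, 77.3 and 96.8 in DKO, without overlap (log2 fold change -0.56 ± 0.23 SE, adjusted p = 0.205 by DESeq2). With total counts as size factors its adjusted p-value was 0.023. Kcnj16 had 645 ± 73.4 against 575 ± 113 normalized counts (adjusted p = 0.777), and Kcnj15, another epithelial rectifier, had 330 ± 90.7 against 328 ± 44.6 (adjusted p = 0.997). Kcnj8, which encodes the pore of vascular ATP-sensitive channels, had 101 ± 7.28 against 106 ± 12.1 (adjusted p = 0.95). Its sulfonylurea receptor partner Abcc9 had 556 ± 48.1 against 555 ± 80.1. Of 5 markers of vascular mural cells, 0 were called by DESeq2, edgeR or limma-voom and 0 had an unadjusted p-value under 0.05, and their summed level ranged from 1632 to 1940 and from 1694 to 1831 normalized counts in the 2 groups.

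Among the 19 voltage-gated pore genes, 0 were called by DESeq2 and 2 had an unadjusted p-value under 0.05, with a family median log2 fold change of -0.05. None was called by edgeR or limma-voom. Kcnq5, a channel of the M-current family, had 51.5, 40.1 and 40.3 normalized counts in WT, against 28.5, 25.1 and 17.3 in DKO. The groups did not overlap (log2 fold change -0.89 ± 0.39 SE, adjusted p = 0.235 by DESeq2). Kcnd3, which encodes the A-type subunit Kv4.3, had 6, 4 and 8 raw counts against 1, 0 and 0. The ratio of its pooled counts was 0.0608, with an exact 95% interval for counting error of 0.00146 to 0.385, and DESeq2 gave no adjusted p-value at so low a mean. Kcnd3 passed the count filter only through WT libraries, which favours a lower DKO level by the choice of rows.

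Kcnq1 had 524 ± 26.7 against 457 ± 27.9 normalized counts, with no overlap (log2 fold change -0.20, DESeq2 adjusted p = 0.541). With total counts as size factors its adjusted p-value was 0.0331. Kcnq1ot1, a long noncoding RNA transcribed from within Kcnq1 on the opposite strand, had 6250, 6290 and 6073 against 6248, 4433 and 6525 normalized counts, where DKO 4 alone was low. Since the libraries were unstranded, reads in their shared exons cannot be told apart. Kcna1, a channel best known from nerve, had 231 ± 42.6 against 240 ± 35.8 (adjusted p = 0.952). Kcna3, known for its role in T cells, had 19.8, 16.6 and 26.0 against 19.9, 13.6 and 11.5, with overlap (adjusted p = 0.82). Of the T cell markers, 4 of 5 were called lower by DESeq2 and 0 by edgeR or limma-voom, where all 5 had an unadjusted p-value under 0.05, with a summed level of 33.3 to 199 normalized counts in WT and 4.61 to 12.3 in DKO.

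Of the 6 calcium- or sodium-activated genes, 0 were called by any of the 3 tools and 1 had an unadjusted DESeq2 p-value under 0.05. Kcnn1, a small-conductance calcium-activated channel, had 86.1, 106 and 83.3 normalized counts against 114, 145 and 138, without overlap (log2 fold change 0.53 ± 0.23 SE, adjusted p = 0.217 by DESeq2). A230052G05Rik overlaps an exon of Kcnn1 on the opposite strand. Other genes described here have such overlaps too, among them Kcnj3 (Gm26794), Kcnq5 (Gm26580), Kcnab3 (Kcnab3os), Kcnj15 (Gm49643) and Kcnd3 (Kcnd3os). Reads of these pairs could not be separated either. Kcnt1, a sodium-activated channel, had 682 ± 126 against 598 ± 189 (adjusted p = 0.829), with DKO 4 the lowest library at 382.

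The 10 accessory subunit genes had 0 calls by DESeq2, edgeR or limma-voom, with 2 at an unadjusted DESeq2 p-value under 0.05. Kcnmb1, the beta1 subunit that tunes the calcium sensitivity of BK channels in smooth muscle, had 25, 17 and 25 raw counts in WT, against 6, 10 and 5 in DKO. The groups did not overlap, at 21.3 ± 4.17 and 7.30 ± 2.73 normalized counts (log2 fold change -1.54 ± 0.60 SE, adjusted p = 0.152 by DESeq2). With total counts as size factors the adjusted p-value was 0.0466. The myoepithelial markers, mostly contractile genes and chosen by the study on these same samples, were lower as well, with 10 of 10 called by DESeq2. By edgeR and limma-voom 0 of the 10 were called, though all 10 had an unadjusted p-value under 0.05. Their summed level ranged from 13746 to 14779 and from 7744 to 9905 normalized counts. Their part in the differences of Kcnmb1 and Kcns3 was not tested.

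Kcne1, a small subunit that slows Kcnq1 channels, was high in 1 library. It had 8.91, 12.7 and 84.2 normalized counts in WT 1, 4 and 5, against 15.2, 12.5 and 9.22. Its log2 fold change of -1.52 (DESeq2 adjusted p = 0.329) rested on WT 5, and without that library it was 0.19. Kcnip3, a calcium-binding modulator of Kv4 channels, had 245 ± 96.3 against 274 ± 48.4 (adjusted p = 0.898), with WT 1 the lowest at 135. Kcnab3, a beta subunit of Kv1 channels, had 90.1, 116 and 116 against 133, 133 and 134, without overlap (adjusted p = 0.598).

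**Figure D4:**
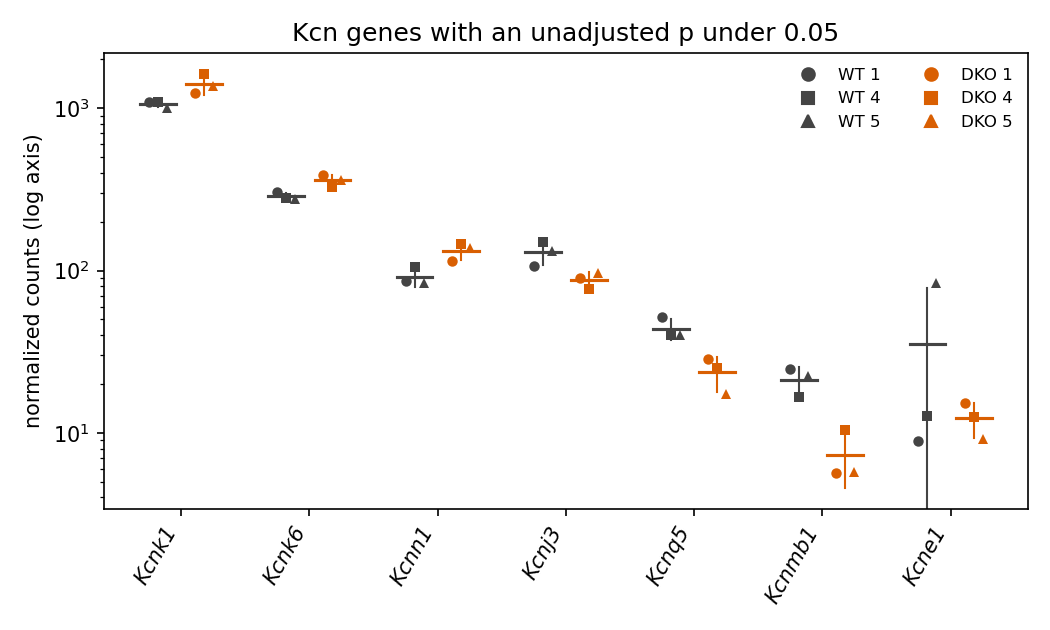
Normalized counts per library (log axis) of 7 of the 8 tested genes with an unadjusted p-value under 0.05 (Kcnd3, with zeros, is left out). Gray symbols are WT, orange DKO, and lines are means ± 1 SD (n = 3), where the lower SD bar of Kcne1 in WT runs below the axis. Kcnk1, Kcnk6 and Kcnn1 are higher and Kcnj3, Kcnq5 and Kcnmb1 lower without overlap, while Kcne1 in WT is set by the single library at 84.2.

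Genes that work with these channels were compared from a list of 24, of which 23 were tested. DESeq2 called 2 higher and 0 lower, with a median log2 fold change of 0.12, and edgeR and limma-voom called 0. Lrrc26, which encodes the gamma1 subunit of BK channels, had 1908, 1971 and 1919 normalized counts in WT, against 2309, 2780 and 2547 in DKO. The groups did not overlap (log2 fold change 0.40 ± 0.10 SE, adjusted p = 0.00657 by DESeq2). Kcnn4, the intermediate-conductance calcium-activated channel of acinar cells, had 5307, 6009 and 4906 against 6459, 8971 and 6785 (log2 fold change 0.45, SE 0.14, adjusted p = 0.0322). Kcnma1, the BK pore, had 3370 ± 247 against 2987 ± 120 (log2 fold change -0.17, adjusted p = 0.418). Leaving out WT 1, WT 5 or DKO 5 removed both calls, and leaving out DKO 4 removed that of Kcnn4. The difference between Lrrc26 and its partner Kcnma1 was not tested. The 10 genes of potassium pumps and cotransporters had 0 calls by the 3 tools and 1 unadjusted p-value under 0.05 in each. The highest log2 fold change among them was 0.26 (Fxyd3).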

How the data were processed

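Libraries were unstranded Nextera XT libraries of total RNA, sequenced on a HiSeq2500. The submitters' processing notes name STAR 2.5.2a, DESeq2, edgeR, limma and the builds GRCm38, mm10 and GRCh38 without roles; the counting tool and annotation were not given in the sources used here. Raw counts by gene symbol were deposited, unfiltered (43280 rows) and filtered (17527 rows). Another deposited table, in CPM scaled by TMM, was not used. No row was unnamed. All count columns were matched to libraries by name.

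The unfiltered counts were fitted for rows with at least 10 counts in all (18606 rows) with DESeq2 1.42.0 in R 4.3.3, the test that the study names. The Wald test was two-sided, with median-of-ratios size factors (0.867 to 1.12). Benjamini-Hochberg adjustment followed the default filters of DESeq2 (independent filtering at 0.1), with a threshold of 0.05. These filters left 2556 rows without an adjusted p-value. Means ± SD refer to normalized counts unless a scale is named. Exact intervals are Clopper-Pearson, at 95%. With 3 libraries against 3, the smallest p a two-sided permutation test of 1 gene allows is 0.1, so none was made. Libraries of 1 group differed by a chi-square of 16.8 to 43.4 per degree of freedom, which is more than counting error alone. Each library was therefore treated as 1 replicate, although this does not show that they came from different mice. The procedure was tested on simulated data. Alternatives were edgeR 4.0.16 (quasi-likelihood), limma-voom (3.58.1), other size factors and filters, a block for the replicate number, and leaving out libraries singly.

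The members and lists were chosen with earlier results of these data known. Genes named were Kcns3, members with an adjusted or unadjusted p-value under 0.05, the 10 of highest level per kb, Kv2 and silent subunits, and partner genes called; others (Kcnj8, Kcna3, Kcnab3, Kcnip4, Kcnh7, Kcnc2, Amigo1, Abcc9 and those at the ends of ranges) were chosen after their values were seen. Coordinates, exon lengths and transcript sequences are those of GENCODE M21 (GRCm38) for the same symbol, which matched all 53 genes. Some genes and sequences that these rules name are not reported here.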

Additional observations from a re-analysis of the deposited data

How the results depend on the processing

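The log2 fold change of Kcns3 moved by less than the spread between replicates under every alternative. The 1 channel gene called higher, Kcnk1, was not called under edgeR, limma-voom, total counts as size factors or the replicate block (0 genes in each), and leaving out 1 library gave 0 to 1 genes. Genes called lower were 0 except with total counts as size factors, which called 4 (Kcnj3, Kcnk5, Kcnmb1 and Kcnq1) and moved the median log2 fold change of the 52 genes to -0.35, with all rows shifted by -0.23. Partner genes called fell from 2 to 0 under edgeR and limma-voom, and leaving out 1 library gave 0 to 2. With total counts as size factors 2 were called too, but Lrrc26 and Kcnn4 were not among them. Over the whole table, 539 rows were called, against 10 by edgeR, 7 by limma-voom, 1472 with total counts as size factors, 343 with the replicate block and 149 to 817 with 1 library left out. No pairing by replicate number was visible. The deviations of same-numbered libraries from their group means correlated at -0.13, -0.02 and -0.26 over 11489 rows, and 0 of the 3 numbers matched best. With 3 libraries per group, such correlations cannot settle whether equal numbers mark a shared origin. Counts of a few reads, as for Kcnd3 or Kcnb2, limit what could be detected, and 44 Kcn rows with at most 5 counts in any library were not examined for a difference.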

Other observations

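Several channel genes of low count were high in a single library, and these were chosen after their values were seen. Kcnip4, a Kv4 modulator, had 15 counts in DKO 4 and 1 to 3 in every other library. Kcnh7, a channel of the ERG family, had 20 counts in DKO 4 and 1 to 5 elsewhere, and Kcnc2, a Kv3 channel of fast-firing neurons, had 9 in DKO 4 and 3 or 4 elsewhere. All 3 genes passed the count filter only through libraries labelled DKO. The 5 neuron markers had 0 calls by DESeq2, edgeR or limma-voom, and 0 at an unadjusted p-value under 0.05, but a summed level of 229 normalized counts in DKO 4, 16.1 in DKO 5 and 43.9 to 85.4 in the other 4 libraries. Tubb3 had 101 counts in DKO 4 and 3 in DKO 5. Their part in the levels of these channel genes was not tested.

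At the count filter, the members of lowest count were Kcnu1 and Kcnj9, each with a highest library of 7 counts. Among the rows left out, Kcnj12 and Kcna7 came nearest, each with a highest library of 5. Of the 53 members, 46 passed through libraries of both groups, 2 only through WT (Kcnd3 and Kcnj9) and 5 only through DKO (Kcnb2, Kcnc2, Kcnh7, Kcnip4 and Kcnu1).

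Of the remaining marker lists, DESeq2 called 6 of 7 granular duct genes lower, as well as 1 of 4 B cell genes and 2 of 4 macrophage genes measured. By edgeR and limma-voom the calls were 2, 0 and 0. The endothelial, Schwann cell, skeletal muscle, and ionocyte and duct lists had 0 calls by DESeq2, edgeR or limma-voom, with 2, 0, 0 and 1 genes at an unadjusted DESeq2 p-value under 0.05, and Myh4 of skeletal muscle was at 0 in all 6 libraries.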
